A study of Zea mays with 9 samples.

Results

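Mild water deficit stress was compared with well-watered conditions in the growing tip of the maize primary root. Of the 9 RNA-seq libraries of the series, 6 belonged to these treatments. Well-watered seedlings were grown in vermiculite at a water potential of -0.02 MPa (replicates 1, 2 and 3), and mildly stressed seedlings at -0.3 MPa (replicates 1, 3 and 4). The remaining 3 libraries came from severe stress at -1.6 MPa (replicates 1, 2 and 5). They contributed to the estimate of the spread, and their values are given beside named genes. All seedlings were of the inbred line B73, were grown in the dark, and were harvested 26 h after transplanting. Each library pooled the apical 1 cm of 5 primary roots, root cap included. The title of the deposited series gives a different water potential for the mild treatment, and the value of the sample labels is used here. Whether replicates came from separate growth boxes is not stated in the sources used here, so p-values measure the spread between these pools. Transcript abundance was analysed per gene, as the sum of the reads of all transcripts of a gene ID, and 26048 of 39323 gene IDs had enough reads to be tested.

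The apical centimeter of the root holds the cap, the meristem and most or all of the elongation zone, where cells expand by taking up water against a yielding cell wall. According to the study's methods, the growth zone reaches beyond this segment in well-watered roots and becomes shorter as the deficit grows. The share of the segment that was growing can therefore differ between the treatments. When water becomes scarce, abscisic acid binds receptors of the PYL family, which then block protein phosphatases 2C and so release SnRK2 kinases. Jasmonate is formed from lipids by lipoxygenases, allene oxide synthase and oxophytodienoate reductases (OPR), and TIFY proteins repress its responses. Glutathione, built from cysteine, is attached to reactive compounds by glutathione transferases.

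Libraries held 33401124 to 52072025 reads on the annotated transcripts, and 33401124 to 43386112 in the 6 libraries compared. Abundance is given in CPM, reads of a gene per 1000000 reads of its library, scaled with TMM factors of 0.959 to 1.09. A count of 3 reads, taken as the floor, was 0.0537 to 0.0910 CPM, and this floor covers counting error only. Between 48.1% and 48.7% of the reads of a library were unique to a transcript. How shared reads were assigned, also between genes with close copies, is not stated in the sources used here. opr1 (GRMZM2G106303) and PYL7 (GRMZM2G144224), each with 1 annotated transcript, had only unique reads. Where each shared read was assigned once, sharing between transcripts of 1 gene leaves the gene sum unchanged. A fit with unique reads drops such reads and tests genes with several transcripts at lower depth. Pearson's r of log2 abundance across 21980 genes, which are not independent replicates, was 0.993 to 0.9944 between well-watered libraries, 0.9942 to 0.9948 between mild libraries and 0.9797 to 0.9832 between the treatments. Markers of the root were present, with rth3 (GRMZM2G377215), a root hair gene, at 61.2, 60.5 and 57.8 CPM in well-watered replicates 1, 2 and 3 and 64.0, 59.0 and 59.7 CPM in mild stress replicates 1, 3 and 4. SCR (GRMZM2G131516), a gene of the endodermis and its stem cells, was at 22.5, 24.3 and 26.0 and 29.2, 27.5 and 24.7 CPM. The stem cell marker wox5B (GRMZM2G116063) was low, with means of 0.786 CPM in well-watered and 1.24 CPM in mild libraries. Of 27 green tissue markers 4 passed the filter on low counts, of 24 kernel zeins 0 did, and of 8 knotted-like genes 5 did. In the 6 libraries the 4 green tissue genes summed to 5.78 to 7.07 CPM. The 5 knotted-like genes, listed as markers of the shoot meristem, which root tips should lack, summed to 68.8 to 83.4 CPM. Whether each of them is specific to that tissue was not tested. None of the 20 tested markers of these cell types and of xylem, endodermis, stem cells and founder cells was called by edgeR at an FDR below 0.05 or by DESeq2, and 3 had an unadjusted p below 0.05.

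Mild stress changed 2324 of the 26048 genes, or 8.92%, with 1185 higher (4.55%) and 1139 lower (4.37%) than under well-watered conditions. The counts of called list members given below are to be read against these shares and against that of named genes. Lists hold only genes with a name, and of 2201 tested genes with a name 267 were changed. The lists therefore miss family members known by ID alone. Here and below a gene is called changed at a Benjamini-Hochberg FDR below 0.05 in edgeR's quasi-likelihood F-test, and the adjusted p is this FDR. Among called genes the rises were the larger changes, but size went with abundance. The median absolute log2 fold change of called genes was 1.88 under 1 CPM, where 158 rose and 75 fell. It was 0.448 at 10 to 100 CPM, where 462 rose and 617 fell. The median log2 fold change was 0.77 among risen genes and -0.54 among fallen genes, against 0.00 (-0.0035) over all tested genes. A log2 fold change of at least 1 was reached by 426 risen and by 260 fallen genes, and one of at least 2 by 135 and 80. The risen genes summed to 29430 to 30490 CPM in well-watered libraries and 45040 to 48940 CPM in mild libraries, and the fallen genes 57740 to 61230 and 41290 to 44450. The 3 values of each treatment did not overlap for 2323 of the 2324 changed genes, a separation that 32.2% of all tested genes showed. Where a lack of overlap is given below for a called gene, it describes the values and adds no support to the call. In these pooled tissues, fewer cells of a type and less RNA per cell cannot be told apart. A shorter growth zone within the fixed segment cannot be told apart from either.

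The number of calls moved with single libraries. There were 1376 without mild stress replicate 3, 1432 without mild stress replicate 4, 1407 without well-watered replicate 2 and 3646 without severe stress replicate 2. In all 9 fits that left out 1 library, 1119 of the 2324 genes were called, of which 633 had risen and 486 had fallen. For the named genes below, a call stood in all 9 of these fits unless a library is named. Calls were spread over abundance classes and chromosomes. Genes with a mean under 1 CPM were called in 5.10% of cases, and those of 1 to 10, 10 to 100 and at least 100 CPM in 9.60%, 10.1% and 8.53%. The share per nuclear chromosome was 7.89% (chromosome 4) to 10.6% (chromosome 7), and 0 of 26 mitochondrial and 0 of 20 plastid genes were called by edgeR or by DESeq2 (1 and 3 at an unadjusted p below 0.05 in edgeR). Under severe stress 14443 genes (55.4%) differed from well-watered roots, and 13032 (50.0%) differed from mild stress. These comparisons share libraries with the mild comparison, so the values of severe stress are set beside those of mild stress for each gene without counting agreement.

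**Figure D1:**
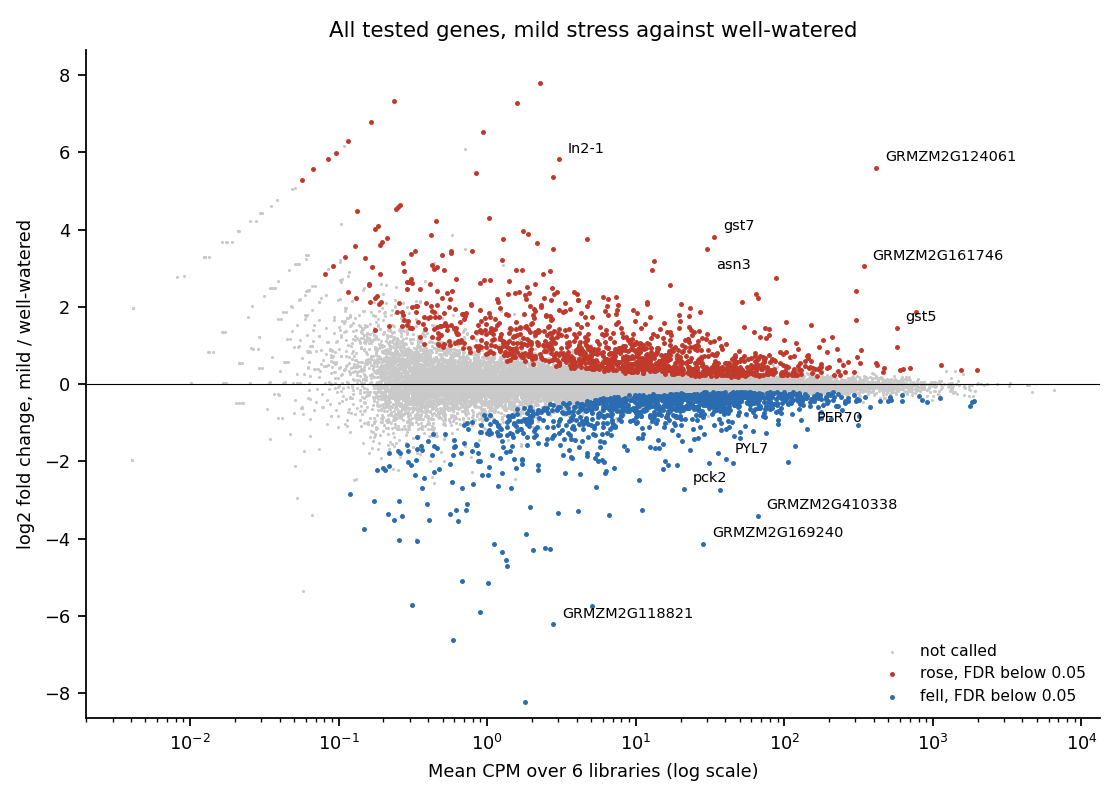
Log2 fold change under mild stress against mean abundance over the 6 libraries (log axis, CPM), 1 point per tested gene, with 1185 risen genes in red and 1139 fallen genes in blue. Large changes lie mostly at low abundance, and GRMZM2G124061 combines a log2 fold change of 5.60 with 810.1 CPM under mild stress.

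Only 2201 of the tested genes, 267 of them changed, carried a name in the deposited tables or the RefSeq gene table, so that many of the strongest changes are known by ID alone. Among genes with at least 5 CPM in 1 of the treatments, In2-1 (GRMZM2G042639) rose most. It encodes a glutathione transferase-like protein and is known for its induction by herbicide safeners. It was at 0, 0.0721 and 0.219 CPM in well-watered replicates 1, 2 and 3 and at 6.58, 5.53 and 5.88 CPM in mild stress replicates 1, 3 and 4, so it was near the floor in every well-watered library and clearly above it in every mild library. The ratio of pooled reads was 58.0 (95% counting interval 33.0 to 113), and the fitted log2 fold change was 5.82 (SE 0.629, adjusted p = 0.000128). Under severe stress it reached 13.9 CPM on average.

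GRMZM2G124061, unnamed, at chr6:67056173-67058503 of B73 RefGen_v3, rose most in absolute amount among the 15 largest rises. Its abundance was 16.3, 16.8 and 17.0 CPM in the well-watered libraries and 1153, 733 and 544 CPM in the mild libraries. The well-watered values were nearly alike, whereas the mild values were spread more widely and lay far above them (log2 fold change 5.60, SE 0.272, adjusted p = 5.8e-07). The severe libraries, at 411, 275 and 384 CPM, were lower than the mild ones (log2 difference -1.18, adjusted p = 0.00101). GRMZM2G161746, at chr4:166273188-166275612, went from 83.8, 77.0 and 59.8 to 790.2, 550.4 and 489 CPM (log2 fold change 3.05, adjusted p = 1.21e-05), and was at 173 CPM under severe stress. GRMZM2G430902 went from 98.1, 99.7 and 89.9 to 692, 472 and 364 CPM (log2 fold change 2.41, adjusted p = 1.03e-05). In these 3 genes mild stress replicate 1 was the highest library and replicate 4 the lowest of the mild stress libraries.

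Asparagine synthetase asn3 (GRMZM2G053669), which stores nitrogen in asparagine, rose from 4.93 ± 2.04 CPM (mean ± SD, n = 3, with 7.22 CPM the highest value) to 48.1, 73.2 and 44.3 CPM, without overlap (log2 fold change 3.51, adjusted p = 4.29e-05). It rose further to 248, 496 and 355 CPM under severe stress. Further unnamed genes among the largest rises were GRMZM5G836174, with means of 2.61 and 24.0 CPM, GRMZM5G800407 (0.442 and 5.11 CPM), GRMZM2G170017 (2.94 and 22.8 CPM), GRMZM2G146034 (4.90 and 29.1 CPM) and GRMZM2G021406 (1.23 and 6.45 CPM). CYP92C6 (GRMZM2G139467), a cytochrome P450 of homoterpene synthesis, rose from 1.30 ± 0.585 to 6.68 ± 1.49 CPM (mean ± SD, n = 3) and to 26.5 CPM under severe stress (adjusted p = 0.00117 for mild stress in edgeR). The other members of the 15 largest rises, gst7, gst8, gst31 and opr1, are described with their families.

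**Figure D2:**
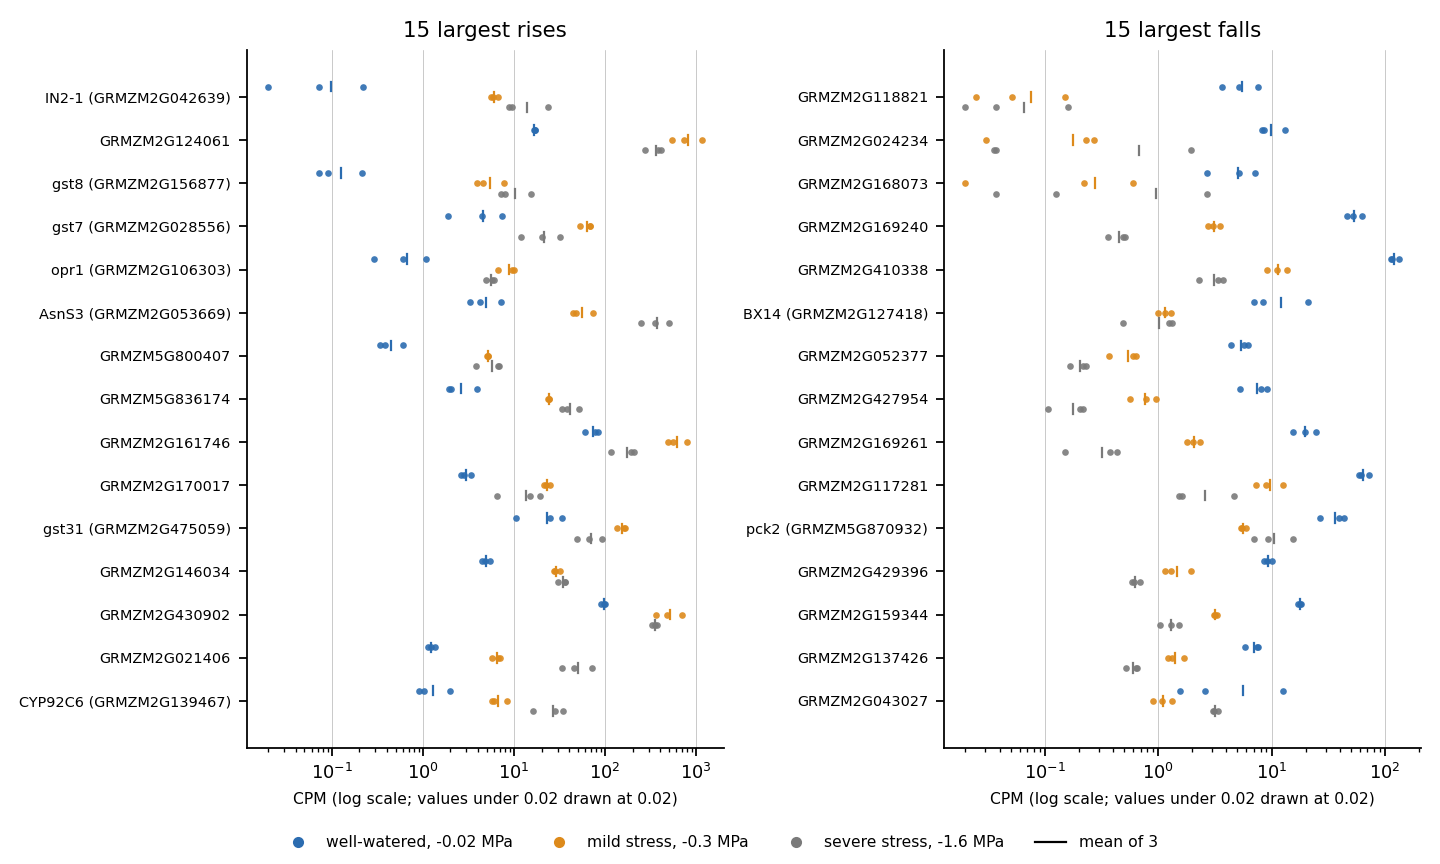
Abundance (CPM, log axis) of the 15 genes with the largest rise and the 15 with the largest fall under mild stress, 1 point per library and a bar at the mean of 3. Genes were eligible only if the 3 mild stress points lay on one side of the 3 well-watered points, so this separation is not a result. The severe stress points lie beyond the mild ones for asn3 (mean 366 CPM) and between the treatments for GRMZM2G161746 (173 CPM).

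The largest falls were of unnamed genes. GRMZM2G118821 was at 3.64, 7.65 and 5.20 CPM in the well-watered libraries and at 0.0510, 0.151 and 0.0246 CPM in the mild ones, a ratio of pooled reads of 79.6 (95% counting interval 40.1 to 185). GRMZM2G024234 fell from 8.22, 13.0 and 8.56 to 0.230, 0.0302 and 0.271 CPM, with a ratio of pooled reads of 54.2 (95% counting interval 35.3 to 87.8), although DESeq2 gave it no adjusted p. Both were close to the floor in every mild library. GRMZM2G168073, chr1:63747176-63748153 and 102279 bp from GRMZM2G024234, was at 2.70, 7.16 and 5.20 and 0, 0.605 and 0.221 CPM (adjusted p = 0.0355), a call that was lost without any 1 of the 6 libraries compared (adjusted p up to 0.148) and in DESeq2 (adjusted p = 0.100).

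A neighboring pair on chromosome 10, GRMZM2G169240 (chr10:19075536-19077433, minus strand) and GRMZM2G169261 (chr10:19078422-19080100, plus strand), fell together. The first went from 46.1, 62.6 and 52.3 to 3.49, 3.02 and 2.73 CPM (log2 fold change -4.12, SE 0.134, adjusted p = 2.04e-08), and the second from 15.6, 24.5 and 19.6 to 2.04, 1.81 and 2.34 CPM (log2 fold change -3.26, SE 0.208, adjusted p = 3.65e-06). The genes lie 989 bp apart. They have 2 and 3 annotated transcripts, and 5.78% and 3.10% of their reads were unique to a transcript. Both fell further under severe stress, to 0.452 and 0.319 CPM. GRMZM2G410338 fell from 113, 133 and 116 to 13.6, 9.19 and 11.2 CPM and to 3.13 CPM under severe stress, and GRMZM2G117281 from 72.5, 61.1 and 58.6 to 12.6, 9.01 and 7.33 and to 2.59 CPM (adjusted p = 2.65e-07 and 0.000126 for mild stress).

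Phosphoenolpyruvate carboxykinase pck2 (GRMZM5G870932), an enzyme of gluconeogenesis, fell from 26.6, 43.6 and 39.5 CPM to 5.51, 5.96 and 5.34 CPM (log2 fold change -2.71, adjusted p = 5.45e-05). Mild stress libraries were tightly grouped and far below the lowest well-watered library, and the severe mean was 10.6 CPM. BX14 (GRMZM2G127418), a methyltransferase of benzoxazinoid synthesis, fell from 20.9, 8.42 and 7.05 to 1.15, 0.998 and 1.30 CPM (adjusted p = 0.000456), with well-watered replicate 1 above the other replicates. GRMZM2G043027 had a stronger form of this pattern, at 12.7, 2.60 and 1.56 against 1.33, 0.907 and 1.08 CPM (adjusted p = 0.0413). Its call was lost without well-watered replicate 1, mild stress replicate 1, 3 or 4 or severe stress replicate 5 (adjusted p up to 0.154). The remaining large falls were of GRMZM2G052377, GRMZM2G427954, GRMZM2G429396, GRMZM2G159344 and GRMZM2G137426, with log2 fold changes of -2.32 to -3.33.

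Further genes were named for the smallest FDRs. GRMZM2G115658 rose from 21.2, 20.5 and 21.7 to 105, 117 and 99.6 CPM (log2 fold change 2.34, SE 0.0755, adjusted p = 2.04e-08), with 1.07% unique reads. AC199541.4_FG001 rose from 10.4 ± 0.718 to 35.2 ± 2.23 CPM and to 79.3 CPM under severe stress, and GRMZM2G123667 from 17.5 ± 1.37 to 42.9 ± 0.873 and 66.1 CPM (means ± SD, n = 3). Of the falls, GRMZM2G126900 went from 161, 189 and 158 to 41.0, 47.7 and 37.9 CPM and to 7.67 CPM under severe stress, and GRMZM2G311756 from 22.0, 21.5 and 21.7 to 6.66, 7.23 and 7.04 CPM (adjusted p = 1.08e-06 and 6.14e-07 in edgeR). Both had few unique reads (5.43% and 6.84%).

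Among the 10 most abundant changed genes 3 rose, all by less than a log2 of 0.5. gst1 (GRMZM2G116273), a glutathione transferase, rose from 1813, 1672 and 1695 to 2308, 2253 and 2138 CPM (adjusted p = 0.00705). The dehydrin gene dhn2 (GRMZM2G373522), whose product protects dehydrating cells, rose from 913, 947 and 965 to 1323, 1248 and 1388 CPM (adjusted p = 0.00108) and to 1588 CPM under severe stress. Each treatment of both genes was tightly grouped. With the replicate number as a block, however, edgeR called none of the 10 genes (adjusted p = 0.152 for gst1 and 0.0847 for dhn2). HRGP (GRMZM2G168651), a hydroxyproline-rich glycoprotein of the cell wall, went from 1358 ± 51.9 to 1745 ± 90.6 CPM (adjusted p = 0.0254), a call lost without mild stress replicate 1 or 3 or any 1 well-watered library (adjusted p up to 0.111). GRMZM2G120962 and GRMZM2G181371 fell from 2128 ± 39.2 to 1546 ± 39.5 and from 2126 ± 28.0 to 1437 ± 183 CPM (adjusted p = 0.00362 and 0.00393). The other 5, namely PIP2-1 and 4 unnamed genes (GRMZM2G391286, GRMZM2G016836, GRMZM2G080466 and GRMZM2G091155), fell with an adjusted p of 0.0187 to 0.0457. These calls were each lost in 4 to 7 of the 9 fits without 1 library, among them the fit without mild stress replicate 4 for all 5 genes, and the highest adjusted p over these fits was 0.183, for GRMZM2G080466. Of the reads of GRMZM2G091155 0.0761% were unique, and with unique reads its log2 fold change was 0.83 (adjusted p = 0.0997), against -0.30 with all reads.

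Of 30 tested glutathione transferases 11 rose and 0 fell, with a median log2 fold change of 0.40. gst8 (GRMZM2G156877) was at 0.0910, 0.216 and 0.0730 CPM in well-watered and 7.75, 3.90 and 4.60 CPM in mild libraries, a ratio of pooled reads of 42.3 (95% counting interval 25.5 to 76.1). gst7 (GRMZM2G028556) rose from 7.40, 1.88 and 4.48 to 67.4, 67.8 and 52.8 CPM (log2 fold change 3.81, SE 0.406, adjusted p = 0.000120) and gst31 (GRMZM2G475059) from 33.7, 10.5 and 24.9 to 166, 160.3 and 134 CPM (log2 fold change 2.75, SE 0.334, adjusted p = 0.000307). Both had their lowest value in well-watered replicate 2, and both were lower under severe than under mild stress, at 21.5 and 69.9 CPM (adjusted p = 0.00306 and 0.00958). gst18 (GRMZM2G019090) was covered by 2 reads in all 3 well-watered libraries and 27 in the mild ones, a ratio of 13.8 (95% counting interval 3.48 to 120.0), and had too few unique reads to be tested with them.

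The other members were named here after their values were seen. gst5 (GRMZM2G308687) rose from 411, 201 and 298 to 978, 784 and 739 CPM (log2 fold change 1.46, adjusted p = 0.00218), gst6 (GRMZM2G129357) from 42.7 ± 3.98 to 115 ± 7.51 CPM (log2 fold change 1.43, adjusted p = 1.99e-06) and GST4 (GRMZM2G132093) from 447, 318 and 401 to 811, 731 and 721 CPM (log2 fold change 0.96, adjusted p = 0.00317). All 3 had no overlap between the treatments. GST4 was at 431 CPM under severe stress. gst20 (GRMZM2G056388), gst23 (GRMZM2G416632) and gst37 (GRMZM2G178079) also rose, with log2 fold changes of 1.71, 1.46 and 0.38. The call of gst37 (adjusted p = 0.0161) was lost without mild stress replicate 1 or 3 or well-watered replicate 2 (adjusted p up to 0.0810). Few reads of gst7, gst31 and GST4 were unique to a transcript (5.24%, 6.79% and 8.71%), whereas all reads of gst5 and gst6 were. gst7 and gst31 have 3 and 2 annotated transcripts, which can share reads.

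Oxophytodienoate reductases were counted from a list added after values had been seen, and 4 of 6 rose (median log2 fold change 1.62). opr1 (GRMZM2G106303) rose from 1.09, 0.289 and 0.608 to 10.0, 6.65 and 9.40 CPM (log2 fold change 3.76, adjusted p = 1.66e-05), opr2 (GRMZM2G000236), 83314 bp away on chromosome 9, from 1.15, 0.192 and 0.389 to 3.65, 2.81 and 2.98 CPM (log2 fold change 2.51, adjusted p = 0.00202), and opr3 (GRMZM2G156712) from 14.0, 10.3 and 11.9 to 35.1, 33.3 and 33.1 CPM (log2 fold change 1.49, adjusted p = 8.3e-06). opr5 (GRMZM2G087192) rose from 2.32 ± 0.125 to 7.74 ± 1.50 CPM (adjusted p = 0.000645). No value of the treatments overlapped in these 4 genes, as in nearly all called genes. The pair that was not called, opr7 (GRMZM2G148281) and opr8 (GRMZM2G082087), are the forms needed for jasmonate synthesis in maize. Their log2 fold changes were -0.18 (95% interval -0.41 to 0.05) and 0.13 (-0.07 to 0.32).

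Genes of sulfate assimilation, glutathione and methionine formed another list added after values had been seen, with 9 risen and 2 fallen of 22 tested (median log2 fold change 0.11). gsh1 (GRMZM2G111579), the glutamate-cysteine ligase that starts glutathione synthesis, rose from 115, 90.6 and 107 to 157, 143 and 154 CPM (log2 fold change 0.54, SE 0.0834, adjusted p = 0.00162). SIR (GRMZM2G090338), sulfite reductase, rose from 145, 123 and 146 to 185, 173 and 186 CPM (log2 fold change 0.39, SE 0.0757, adjusted p = 0.00656), and was at 124 CPM under severe stress. In both genes well-watered replicate 2 was the lowest of the 6 libraries, and no values overlapped. MSRA2 (GRMZM2G022413), a methionine sulfoxide reductase, rose from 9.11 ± 0.982 to 23.2 ± 1.94 CPM (log2 fold change 1.35, adjusted p = 2.49e-05), and ZmAPRL2 (GRMZM2G087254) from 1.57 ± 0.649 to 4.05 ± 0.363 CPM (log2 fold change 1.39, adjusted p = 0.00990). gsh1 and SIR, of smaller change, were named after their values were seen. Serine acetyltransferase genes, which feed cysteine synthesis, were called in both directions. sat2 (GRMZM2G013430) went from 3.05 ± 0.460 to 5.43 ± 0.973 CPM (adjusted p = 0.00947), sat1 (GRMZM2G069203) from 2.45 ± 0.404 to 3.65 ± 0.425 CPM (adjusted p = 0.0389) and sat3 (GRMZM5G816110) from 40.2 ± 4.16 to 29.9 ± 1.84 CPM (adjusted p = 0.00675). The other fall was of aprl3 (GRMZM2G042582, adjusted p = 0.0213), whose call was lost with unique reads (adjusted p = 0.126), with library sizes without TMM and without any 1 mild stress library or well-watered replicate 1 or 2 (up to 0.114). The call of sat2 was lost without well-watered replicate 2 (adjusted p = 0.0501), that of sat1 without mild stress replicate 1 or 3, severe stress replicate 5 or well-watered replicate 2 or 3 (adjusted p up to 0.149), and 7 rather than 11 members of the list were called without well-watered replicate 2.

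**Figure D3:**
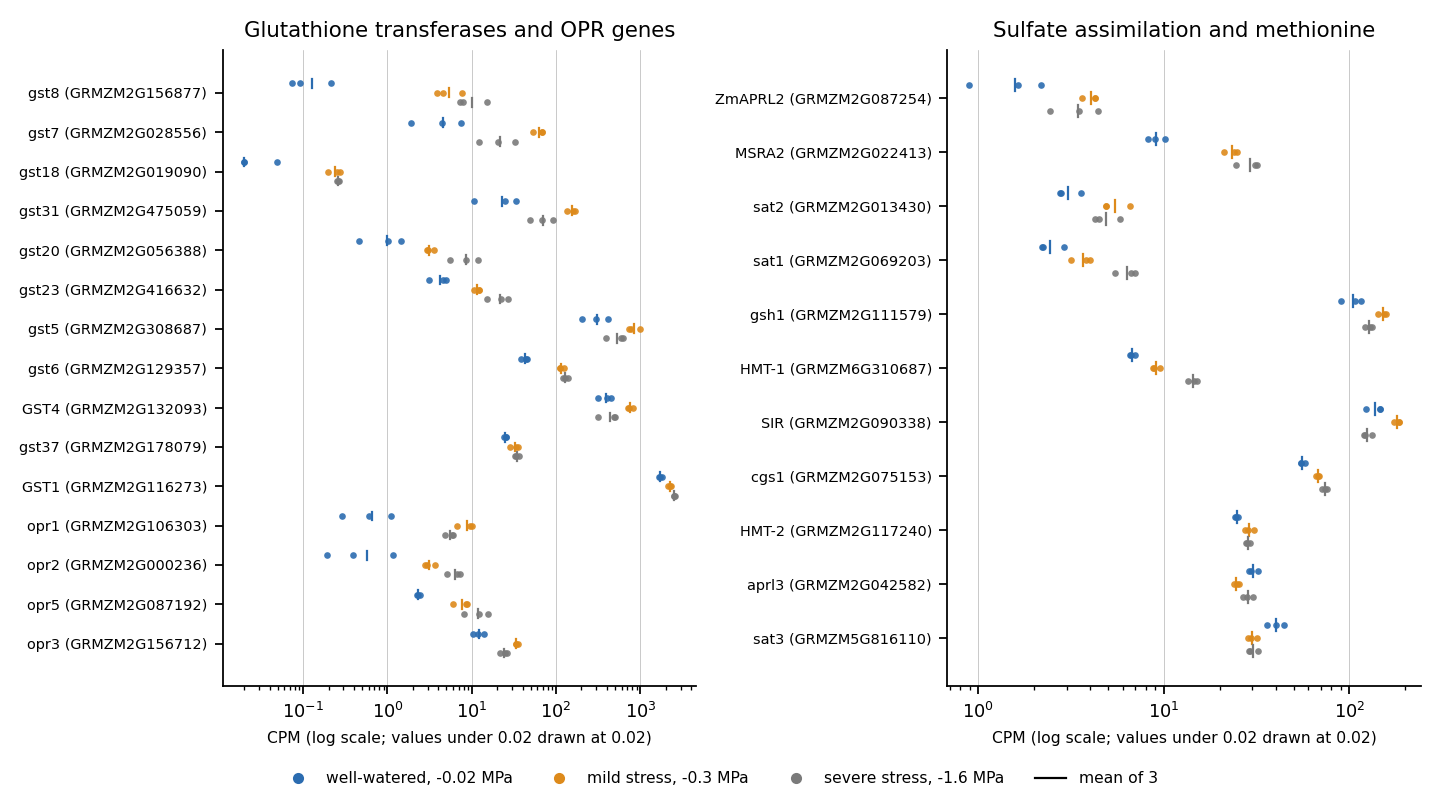
Abundance (CPM, log axis) of the called glutathione transferases, oxophytodienoate reductases and genes of sulfate assimilation and methionine, 1 point per library and a bar at the mean of 3. Only called members are drawn, so the side on which they lie repeats the calls. Of 30 tested glutathione transferases 11 rose, of 6 tested reductases 4 rose, and of 22 tested sulfur genes 9 rose and 2 fell.

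In the abscisic acid and dehydration list 9 of 37 tested genes rose and 7 fell (median log2 fold change 0.04). Of 9 tested PYL receptors, a list added after values had been seen, 6 fell and 0 rose (median log2 fold change -0.51). PYL7 (GRMZM2G144224) fell from 65.8, 66.4 and 59.4 to 20.9, 14.0 and 14.8 CPM (log2 fold change -1.94, SE 0.124, adjusted p = 3.65e-06) and PYL5 (GRMZM2G057959) from 28.9, 25.2 and 20.9 to 7.24, 4.23 and 4.82 CPM (log2 fold change -2.19, SE 0.184, adjusted p = 2.23e-05). The treatments were well separated in both genes, and both fell further under severe stress, to 3.64 and 1.39 CPM. The 2 genes that carry the name PYL3 also fell, GRMZM2G154987 from 6.25 ± 0.914 to 2.03 ± 0.130 CPM and GRMZM2G047677 from 9.43 ± 0.185 to 4.58 ± 1.43 CPM (adjusted p = 2.62e-05 and 0.00567). The most abundant receptor, PYL2 (GRMZM2G134731), went from 102, 113 and 101 to 81.4, 76.9 and 63.8 CPM (adjusted p = 0.00656). PYL10 (GRMZM2G165567) fell with an adjusted p of 0.0396, a call lost without severe stress replicate 5 or any 1 of the 6 libraries compared (adjusted p up to 0.162), and with unique reads (adjusted p = 0.139).

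Of 21 tested protein phosphatases 2C, also counted from a list added later, 5 rose and 1 fell (median log2 fold change 0.16). PP2C11 (GRMZM2G308615) rose from 0.970, 0.842 and 1.09 to 3.80, 4.66 and 4.80 CPM (log2 fold change 2.19, adjusted p = 2.47e-06) and to 33.4, 35.5 and 33.9 CPM under severe stress. PP2C20 (GRMZM2G166297) rose from 9.58, 7.91 and 9.68 to 13.8, 18.1 and 16.3 CPM (log2 fold change 0.83, adjusted p = 0.00120), and PP2C3 (GRMZM2G059453) from 11.4 ± 0.771 to 15.4 ± 1.37 CPM (adjusted p = 0.00608). PP2C19 (GRMZM2G069713) fell from 89.3 ± 9.87 to 67.3 ± 2.77 CPM (adjusted p = 0.00515). The rise of PP2C4 (GRMZM2G177386, adjusted p = 0.0116) was lost without mild stress replicate 3 or well-watered replicate 1 (up to 0.0567), and that of PP2C30 (GRMZM2G169000, adjusted p = 0.0270) without any 1 of the 6 libraries compared (up to 0.113). PP2C13 (GRMZM2G159811), named after its values were seen, was covered by 0, 0 and 1 reads in the well-watered libraries and by 1, 6 and 16 in the mild ones, and was not called (adjusted p = 0.0876). With unique reads, 4.75% and 5.35% of the total, the calls of PP2C19 and PP2C4 were lost (adjusted p = 0.125 and 0.180). The fit without severe stress replicate 2 called 12 phosphatases.

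Of 7 tested SnRK2 kinases, a list added later, 2 fell (median log2 fold change -0.16). SnRK2.5 (GRMZM2G110908) went from 26.0 ± 0.564 to 19.6 ± 0.817 CPM (adjusted p = 0.00462), whereas the call of SnRK2.11 (GRMZM2G063961, adjusted p = 0.0157) was lost without mild stress replicate 1 or 3 or well-watered replicate 1 or 2 (adjusted p up to 0.0793). VP14 (GRMZM2G014392), the dioxygenase of the regulated step of abscisic acid synthesis, was at 2.85, 2.36 and 1.82 CPM in well-watered and 3.85, 4.57 and 3.91 CPM in mild libraries and at 17.1 CPM under severe stress. Its rise (log2 fold change 0.82, SE 0.217, adjusted p = 0.0366) was lost without any 1 mild stress library or without well-watered replicate 2 or 3 (adjusted p up to 0.148). The newer quasi-likelihood method of edgeR did not call VP14 either (adjusted p = 0.108). EMB5 (GRMZM2G162659), a late embryogenesis abundant protein, was at 0.455, 0.168 and 0.389 and 0.969, 0.756 and 1.43 CPM (adjusted p = 0.0159) and reached 12.3 CPM under severe stress, and its call was lost without mild stress replicate 4 or well-watered replicate 2 (adjusted p up to 0.0817). The gene listed as aba1 and asr1 (GRMZM2G136910), of the abscisic acid, stress and ripening family and named after its values were seen, rose from 236, 225 and 184 to 301, 334 and 328 CPM (log2 fold change 0.58, adjusted p = 0.00374) and to 939 CPM under severe stress.

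**Figure D4:**
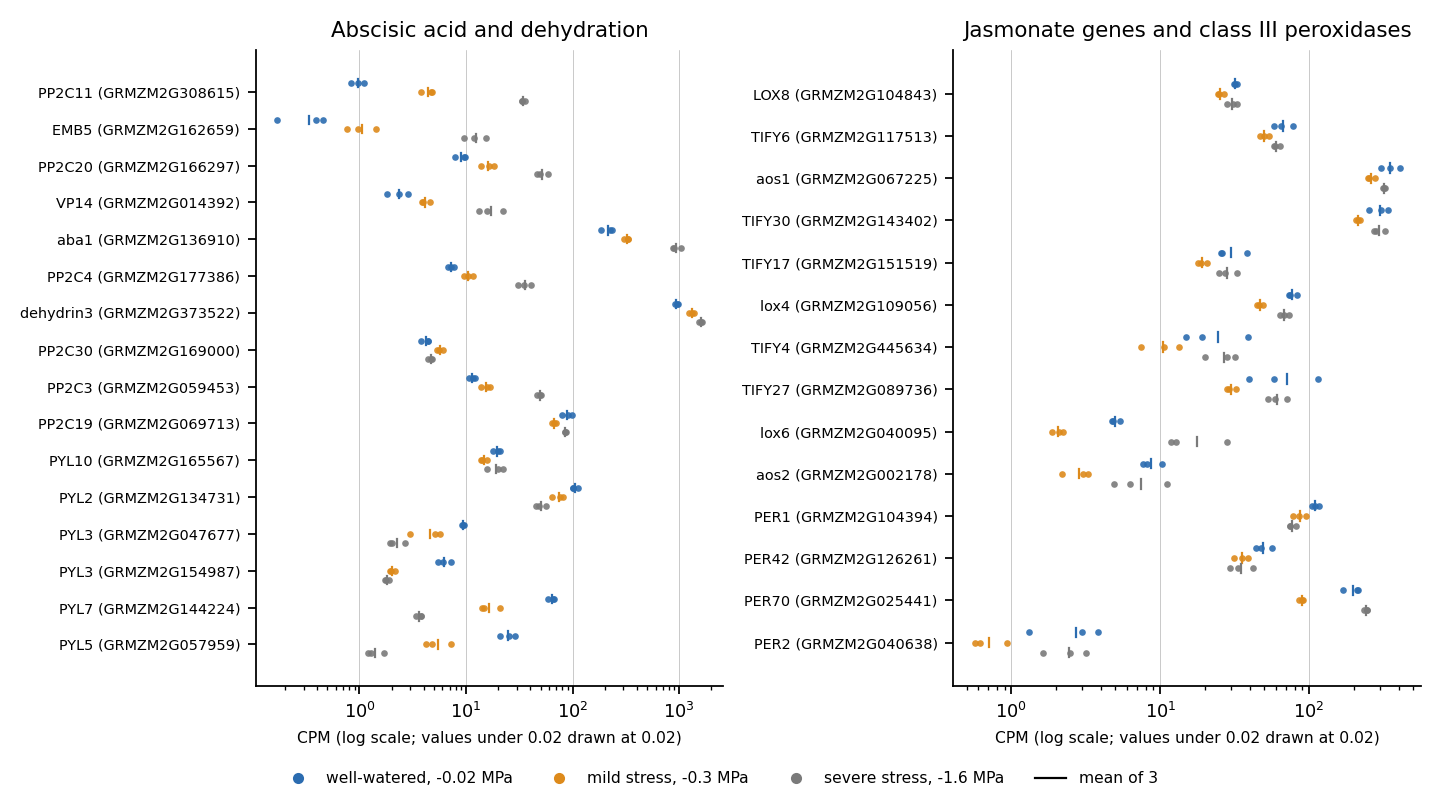
Abundance (CPM, log axis) of the called genes of abscisic acid signaling and dehydration (left) and of jasmonate synthesis, TIFY and peroxidase genes (right), 1 point per library and a bar at the mean of 3. PYL5 and PYL7 step down from well-watered to mild and to severe stress, whereas PER70 is lower under mild stress (88.9 CPM) than in either other treatment (197 and 241 CPM).

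The called jasmonate genes other than the OPR genes fell. In the jasmonate and lipoxygenase list 4 of 42 tested genes rose, all of them OPR genes, and 10 fell (median log2 fold change -0.25). Of these 14, 6 were called without mild stress replicate 4, 7 without mild stress replicate 3 and 9 without well-watered replicate 1. lox4 (GRMZM2G109056), a lipoxygenase named after its values were seen, fell from 73.4, 82.8 and 74.0 to 45.9, 49.2 and 44.4 CPM (log2 fold change -0.72, SE 0.0715, adjusted p = 7.18e-05). aos2 (GRMZM2G002178), an allene oxide synthase, fell from 7.70, 10.2 and 8.15 to 2.19, 3.30 and 3.05 CPM (log2 fold change -1.62, SE 0.273, adjusted p = 0.00297). Both genes were without overlap, and aos2 was at 7.43 CPM under severe stress. None of the reads of aos2 was unique, so it could not be tested with unique reads. lox6 (GRMZM2G040095) went from 4.96 ± 0.352 to 2.06 ± 0.189 CPM and to 17.5 ± 9.16 CPM under severe stress (adjusted p = 0.0303 for mild stress), with its mild call lost without any 1 of the 6 libraries compared (adjusted p up to 0.110).

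Of 19 tested TIFY genes, a list added after values had been seen, 5 fell and 0 rose (median log2 fold change -0.42). TIFY27 (GRMZM2G089736) was at 115, 58.2 and 39.7 CPM in well-watered replicates 1, 2 and 3 and at 28.2, 29.0 and 32.3 CPM in the mild libraries (log2 fold change -1.25, SE 0.291, adjusted p = 0.0192). Well-watered replicate 1 was the highest library in all 5 genes, as it was for BX14 and GRMZM2G043027. TIFY4 (GRMZM2G445634) followed the same pattern, at 39.0, 19.1 and 15.0 against 10.6, 7.47 and 13.5 CPM (adjusted p = 0.0391). TIFY30 (GRMZM2G143402), the most abundant, went from 338, 305 and 253 to 212, 219.7 and 207 CPM (adjusted p = 0.00997), TIFY17 (GRMZM2G151519) from 29.9 ± 7.26 to 19.0 ± 1.33 CPM and TIFY6 (GRMZM2G117513) from 66.9 ± 10.3 to 50.1 ± 3.43 CPM. Of the 5, 0 were called without mild stress replicate 4, 1 without mild stress replicate 3, 2 without well-watered replicate 1, and 3 without mild stress replicate 1 or well-watered replicate 2. The highest adjusted p over these fits was 0.164, for TIFY4, which DESeq2 did not call (adjusted p = 0.0573). TIFY17 was lost with unique reads (adjusted p = 0.125). Severe stress means were 60.6, 26.6 and 293 CPM for TIFY27, TIFY4 and TIFY30, each above the mild mean.

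Class III peroxidases act on cell wall phenolics with hydrogen peroxide. Of the 5 tested genes with a matching symbol, which are only a part of the family, 4 fell (median log2 fold change -0.49). PER70 (GRMZM2G025441) fell from 209, 212 and 169.8 to 90.9, 90.2 and 85.7 CPM (log2 fold change -1.15, SE 0.0822, adjusted p = 8.29e-06). The mild libraries were the lowest of all 9, and severe stress libraries, at 246, 243 and 234 CPM, were the highest (log2 difference from mild stress 1.44, adjusted p = 4.2e-07). PER42 (GRMZM2G126261), 24333 bp from PER70 on chromosome 7, went from 49.1 ± 6.34 to 35.1 ± 3.73 CPM (adjusted p = 0.0392), PER1 (GRMZM2G104394) from 109.6 ± 5.83 to 86.2 ± 8.28 CPM (adjusted p = 0.0143) and PER2 (GRMZM2G040638) from 2.70 ± 1.28 to 0.705 ± 0.202 CPM (adjusted p = 0.00833). These 3 calls were less steady than that of PER70. Without mild stress replicate 4 only PER70 was called, and without mild stress replicate 3 or well-watered replicate 2, 2 of the 4 were. PER42 was also lost without mild stress replicate 1 or well-watered replicate 3, and PER1 without well-watered replicate 1, with adjusted p up to 0.175. PER42, with 0.157% unique reads, had too few of them to be tested.

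Aquaporins, the membrane channels for water, were mostly not called, with 3 of 26 fallen, 1 risen and a median log2 fold change of -0.06. The share called was 15.4%, against 8.92% of all tested genes and 267 of 2201 named ones. The plasma membrane genes PIP2-6 (GRMZM2G047368) and PIP2-1 (GRMZM2G014914), 115147 bp apart on chromosome 7, went from 145, 157 and 147 to 113, 108 and 103 CPM (adjusted p = 0.000652) and from 1163, 1358 and 1228 to 997, 1045 and 897 CPM (adjusted p = 0.0187). The vacuolar membrane gene TIP2-3 (GRMZM2G125023) went from 104, 124 and 115 to 87.7, 93.2 and 78.9 CPM (adjusted p = 0.0158). Treatments did not overlap in any of them. Under severe stress PIP2-6 was at 155 and TIP2-3 at 232 CPM, above mild stress in both (adjusted p = 5.85e-05 and 8.92e-07), and PIP2-1 was at 807 CPM. The calls of PIP2-1 and TIP2-3 were lost without mild stress replicate 1 or 4 or well-watered replicate 2 or 3 (adjusted p up to 0.105 and 0.0908), which left 2 members called, whereas 8 were called without severe stress replicate 2 or with the 6 libraries alone. NIP2-1 (GRMZM2G028325), a silicon channel, rose from 1.39, 1.37 and 1.65 to 6.27, 7.38 and 6.54 CPM (log2 fold change 2.18, adjusted p = 4.71e-06) and to 75.8 CPM under severe stress.

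Of 13 tested expansins and xyloglucan endotransglucosylases, which loosen and remodel the wall, 2 rose and 1 fell (median log2 fold change 0.09). expa1 (GRMZM2G339122) rose from 54.4, 47.7 and 51.5 to 79.9, 94.9 and 68.3 CPM (log2 fold change 0.66, SE 0.117, adjusted p = 0.00404) and to 271 CPM under severe stress. expa2 (GRMZM2G105844) went from 8.84 ± 1.51 to 12.9 ± 1.57 CPM (adjusted p = 0.0338), a call lost without mild stress replicate 1 or 3 or any 1 well-watered library (adjusted p up to 0.121). The beta-expansin expB6 (GRMZM2G176595) went from 2.58, 3.27 and 2.02 to 1.17, 1.75 and 1.11 CPM (adjusted p = 0.00997), lost without mild stress replicate 1 or 4 (adjusted p up to 0.0605), and was at 22.4 CPM under severe stress. The list had 1 call without mild stress replicate 1, 5 without severe stress replicate 1 and 7 without severe stress replicate 2. None of 20 tested cellulose synthase and secondary wall genes was called by edgeR, 5 had an unadjusted p below 0.05 and DESeq2 called 1 (median log2 fold change -0.06), and the smallest adjusted p was that of cesa3 (GRMZM2G039454), 0.0552. Without severe stress replicate 2, 3 of them were called, and without mild stress replicate 3, 1.

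Genes of phenylpropanoid and lignin synthesis rose in 6 of 18 cases and fell in 0 (median log2 fold change 0.24). CCR (GRMZM2G131205), cinnamoyl-CoA reductase, rose from 1.33, 3.87 and 0.851 to 10.2, 10.7 and 8.93 CPM (log2 fold change 2.27, SE 0.422, adjusted p = 0.00538), and to 92.2 CPM under severe stress. Well-watered replicate 2 was the highest of the well-watered libraries and below every mild library. Of the reads of CCR 2.30% were unique, and with these alone its call was lost (log2 fold change 1.29, adjusted p = 0.286). The laccase gene GRMZM2G072808 rose from 1.20 ± 0.219 to 3.20 ± 1.12 CPM (adjusted p = 0.00486), and bm1 (GRMZM5G844562), the cinnamyl alcohol dehydrogenase of brown midrib maize, named after its values were seen, from 133, 128 and 113 to 171, 161 and 166 CPM (log2 fold change 0.42, adjusted p = 0.00433). The other 3 calls were of laccases. Those of lac5 (GRMZM2G367668, adjusted p = 0.0355) and lac4 (GRMZM2G164467, adjusted p = 0.0438) were lost without any 1 of the 6 libraries, and that of GRMZM2G072780, named after its values were seen (adjusted p = 0.0242) without mild stress replicate 1 or 3 or any 1 well-watered library, with adjusted p up to 0.158. The list had 3 calls without mild stress replicate 1 or 3 or any 1 well-watered library, and 10 without severe stress replicate 2.

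Nitrogen genes changed in 6 of 16 cases, 4 upward (median log2 fold change -0.06). asn2 (GRMZM2G093175), a second asparagine synthetase, rose as asn3 did, from 0.243, 0.385 and 0.0973 to 2.07, 2.33 and 2.44 CPM (log2 fold change 3.22, SE 0.347, adjusted p = 0.000128). The glutamine synthetase listed as GLN2 (GRMZM2G024104) rose from 3.85, 3.39 and 3.67 to 9.33, 7.95 and 9.52 CPM (log2 fold change 1.30, SE 0.212, adjusted p = 0.00230) and to 186 CPM under severe stress. All mild libraries lay above all well-watered ones in both. GLN6 (GRMZM2G050514) went from 206 ± 14.8 to 289 ± 8.75 CPM (adjusted p = 0.0245) and was at 183 CPM under severe stress, with its mild call lost without any 1 of the 6 libraries compared (adjusted p up to 0.0998). Unique reads were 0.808% of GLN2 and 0.281% of GLN6, and with these alone neither was called (log2 fold changes 0.74 and 0.73, adjusted p = 0.604 and 0.0794). NAR2.1 (GRMZM2G179294), the partner protein of high-affinity nitrate transporters, fell from 30.3 ± 3.56 to 10.9 ± 0.101 CPM (mean ± SD, n = 3; log2 fold change -1.47, SE 0.100, adjusted p = 5.98e-06), and the severe mean was 10.3 CPM. Nitrate reductase NAR (GRMZM5G878558) went from 2.22 ± 0.650 to 0.959 ± 0.306 CPM (adjusted p = 0.0353), lost without mild stress replicate 3 or 4 or well-watered replicate 2 or 3 (adjusted p up to 0.157).

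Sugar cleavage and fermentation genes fell where they were called. The invertases, which split sucrose, gave 2 falls of 10 tested genes for sucrose and trehalose (median log2 fold change -0.14). IVR1 (GRMZM2G394450), a vacuolar form, fell from 27.7, 24.7 and 26.0 to 17.1, 18.7 and 16.8 CPM (log2 fold change -0.58, SE 0.0764, adjusted p = 0.000546), and incw1 (GRMZM2G139300), a cell wall form, from 117, 118 and 108 to 86.3, 89.8 and 78.1 CPM (log2 fold change -0.43, SE 0.0828, adjusted p = 0.00651). Both lacked overlap between the treatments. The fit without severe stress replicate 2 called 4 of this list. Of 11 glycolysis and fermentation genes 3 fell (median log2 fold change -0.10). Alcohol dehydrogenase adh1 (GRMZM2G442658) fell from 309.9, 292 and 293 to 189.8, 174 and 203 CPM (log2 fold change -0.66, SE 0.0894, adjusted p = 0.000651), whereas the severe libraries were at 359.8, 436 and 449 CPM, above mild stress (adjusted p = 3.51e-06). With unique reads, 0.535% of its total, its log2 fold change was -0.70 and the call was lost (adjusted p = 0.0618). adh2 (GRMZM2G098346) went from 147 ± 14.4 to 107 ± 8.90 CPM (adjusted p = 0.0139) and the pyruvate decarboxylase pdc2 (GRMZM2G038821) from 0.450 ± 0.147 to 0.132 ± 0.0180 CPM (adjusted p = 0.0281). Without mild stress replicate 1 or 4 or well-watered replicate 3 only adh1 was called, adh2 was also lost without well-watered replicate 2 and pdc2 without mild stress replicate 3 or well-watered replicate 1 (adjusted p up to 0.0727 and 0.110). The 1 tested proline gene, p5cr (GRMZM2G068665), was at 31.2 ± 1.67 and 36.4 ± 1.45 CPM (adjusted p = 0.0603) and was called in the fits without severe stress replicate 1 or 2.

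Among other hormones, 7 of 46 auxin genes rose and 2 fell (median log2 fold change 0.03). In all 19.6% were called, against 8.92% of all tested genes and 267 of 2201 named ones. Yucca6 (GRMZM2G019515), a monooxygenase of auxin synthesis named after its values were seen, rose from 23.1, 23.8 and 24.0 to 34.7, 31.9 and 31.0 CPM (log2 fold change 0.46, SE 0.0598, adjusted p = 0.000487). AUX10 (GRMZM2G057067) rose from 2.27, 2.67 and 2.12 to 4.87, 5.80 and 5.83 CPM (log2 fold change 1.22, SE 0.251, adjusted p = 0.00968). AUX35 (GRMZM2G167794) fell from 206, 199.7 and 189 to 159, 149.5 and 150.3 CPM (log2 fold change -0.37, SE 0.0634, adjusted p = 0.00297). None of these treatments overlapped. The response factor ARF12 (GRMZM2G437460) fell from a mean of 15.2 CPM, with a log2 fold change of -0.34 (adjusted p = 0.00694). GH3 (GRMZM2G378106), which joins auxin to amino acids, had an adjusted p of 0.0144, lost without mild stress replicate 4 (0.0753). BIF4 (GRMZM5G864847) was covered by 7 well-watered and 33 mild reads, a ratio of 4.83 (95% counting interval 2.10 to 12.9), and ARF28 (GRMZM2G006042) was at 0.113 ± 0.0146 and 0.418 ± 0.101 CPM. The calls of BIF4 and ARF28 were each lost without 5 libraries, for both of them mild stress replicates 1 and 4 and well-watered replicates 1 and 2, for BIF4 mild stress replicate 3 and for ARF28 well-watered replicate 3 (adjusted p up to 0.0919). With unique reads the calls of AUX10 and ARF12 were lost (adjusted p = 0.436 and 0.605), and GH3 and ARF28 had too few to be tested. The fit without mild stress replicate 4 called 5 auxin genes.

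Cytokinin genes changed in 8 of 23 cases, 6 upward (median log2 fold change 0.05). The cis-zeatin O-glucosyltransferases, which store cytokinin as a glucoside, both rose, CISZOG2 (GRMZM2G110511) from 22.0, 20.1 and 23.9 to 54.2, 53.9 and 43.9 CPM (log2 fold change 1.20, SE 0.129, adjusted p = 0.000126) and CISZOG1 (GRMZM2G168474) from 1.00, 0.817 and 0.924 to 2.65, 3.93 and 2.95 CPM (log2 fold change 1.79, SE 0.196, adjusted p = 0.000137). All mild libraries lay above the well-watered ones. The receptor kinase HK1b1 (GRMZM2G155767) rose from 9.75 ± 0.677 to 15.6 ± 1.96 CPM (adjusted p = 0.00494). Among cytokinin oxidases, which degrade the hormone, ckx1 (GRMZM2G146644) fell from 6.08 ± 0.469 to 3.19 ± 0.590 CPM (adjusted p = 0.00252). CKX12 (GRMZM2G008792) went from 1.44 ± 0.324 to 0.625 ± 0.202 CPM and CKX4b (GRMZM2G024476) from 0.790 ± 0.248 to 2.11 ± 0.664 CPM (adjusted p = 0.0225 and 0.0154). The first was lost without mild stress replicate 1 or 3 or well-watered replicate 1 or 2, and the second without mild stress replicate 3 or 4 or well-watered replicate 2 (adjusted p up to 0.0919 and 0.0868). With unique reads the calls of CISZOG1 and CKX12 were lost (adjusted p = 0.124 and 0.125). The list had 4 calls without mild stress replicate 3 or well-watered replicate 2, and 5 without well-watered replicate 1.

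Of 7 ethylene genes 2 fell (median log2 fold change -0.67). The ethylene receptor gene etr2 (GRMZM2G420801) fell from 41.2, 43.4 and 40.4 to 27.1, 25.0 and 25.8 CPM (log2 fold change -0.68, SE 0.0628, adjusted p = 4.29e-05), and the ACC synthase gene acs7 (GRMZM5G894619), of ethylene synthesis, from 4.97, 5.19 and 5.76 to 1.99, 2.81 and 2.39 CPM (log2 fold change -1.15, SE 0.151, adjusted p = 0.000505). Both were separated without overlap, and severe means were 27.8 and 2.52 CPM. Unique reads, 2.63% of its total, were too few for a test of acs7. The list had 5 calls without severe stress replicate 2, and 4 without mild stress replicate 3 or severe stress replicate 1. None of 7 gibberellin genes was called by edgeR or DESeq2 and 2 had an unadjusted p below 0.05 (median log2 fold change -0.14), and D8 (GRMZM2G144744), a DELLA repressor of gibberellin responses, had the smallest adjusted p (0.153), with a log2 fold change of -0.18 (95% interval -0.33 to -0.03).

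Lipid transfer and secreted proteins rose in 6 of 12 cases and fell in 0 (median log2 fold change 0.57). chiA (GRMZM2G051943), an abundant chitinase named after its values were seen, rose from 164, 146 and 159.9 to 306, 306 and 269 CPM (log2 fold change 0.91, SE 0.0862, adjusted p = 5.2e-05) and to 592 CPM under severe stress. The chitinase chiI (GRMZM2G145461) rose from 0.849, 1.18 and 2.12 to 5.08, 4.90 and 5.34 CPM and the proteinase inhibitor MPI (GRMZM2G028393) from 0.273, 0.457 and 0.389 to 2.01, 3.14 and 2.14 CPM (adjusted p = 0.000549 and 0.000145). No values overlapped. chiB (GRMZM2G005633) was covered by 11 well-watered and 88 mild reads, a ratio of 8.19 (95% counting interval 4.36 to 17.0). With unique reads its call was lost (adjusted p = 0.297), and those of MPI were too few to be tested. ZLP (GRMZM2G374971), a zeamatin-like protein, had an adjusted p of 0.0180, lost without mild stress replicate 1 or well-watered replicate 1 (0.0791 at most), and the cystatin gene GRMZM2G012160, named after its values were seen, had one of 0.0452, lost without severe stress replicate 5 or any 1 of the 6 libraries (0.148 at most).

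Benzoxazinoids are defensive glucosides of young maize tissue, and 3 of their 10 tested genes rose and 1, BX14, fell (median log2 fold change 0.35). The glucosyltransferase BX9 (GRMZM2G161335) rose from 395, 395 and 405 to 581, 524 and 499 CPM (log2 fold change 0.43, SE 0.0759, adjusted p = 0.00419). BX8 (GRMZM2G085054) and BX4 (GRMZM2G172491), 160611 bp apart on chromosome 4, were at 139.7 ± 4.10 and 169 ± 11.9 CPM and at 3.05 ± 0.437 and 6.17 ± 1.64 CPM (adjusted p = 0.0248 and 0.0348). Both calls were lost without mild stress replicate 1 or any 1 well-watered library, that of BX8 without mild stress replicate 4 and that of BX4 without mild stress replicate 3 (adjusted p up to 0.0998 and 0.139), so that BX9 and BX14 alone of the 4 were called without mild stress replicate 1 or any 1 well-watered library. BX8 was also lost with unique reads (adjusted p = 0.108). Heat shock genes rose in 4 of 15 cases (median log2 fold change 0.16). HSP70 (GRMZM2G310431) rose from 34.2, 31.8 and 33.5 to 52.7, 47.9 and 45.0 CPM (log2 fold change 0.55, SE 0.109, adjusted p = 0.00785) and to 173 CPM under severe stress, and the small heat shock gene hsp18f (GRMZM2G083810) from 1.38 ± 0.360 to 2.91 ± 0.351 CPM (adjusted p = 0.00298). hsp22 (GRMZM2G007729, adjusted p = 0.0110) was lost without well-watered replicate 2 (0.0544). HSP18 (GRMZM2G404249, adjusted p = 0.0377) was covered by 11 well-watered and 29 mild reads, a ratio of 2.70 (95% counting interval 1.31 to 5.99), and was lost without mild stress replicate 1 or 3, severe stress replicate 5 or any 1 well-watered library (up to 0.259), with the 6 libraries alone and in DESeq2 (adjusted p = 0.0658). Without well-watered replicate 2, 2 of the 4 were called. None of 15 genes of reactive oxygen scavenging and production was called by edgeR, 3 had an unadjusted p below 0.05 and DESeq2 called 2 (median log2 fold change 0.02), and sodC (GRMZM2G106928) had the smallest adjusted p, 0.0596, at 104 ± 1.64 and 120.0 ± 5.96 CPM. The germin-like gene GLP2 (GRMZM2G122018), named after its values were seen, had 0, 2 and 0 reads in the well-watered libraries and 27, 56 and 73 in the mild ones, and was not called (adjusted p = 0.142), while its severe values were as far apart as 21.4, 155 and 50.8 CPM. Without severe stress replicate 1, 2 of these 15 were called, and without severe stress replicate 2, 4.

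For mineral nutrition, 2 of 7 phosphate genes rose (median log2 fold change 0.48). PAPhy (GRMZM2G134054), a purple acid phosphatase that acts as a phytase, rose from 32.4, 29.1 and 44.1 to 65.6, 66.0 and 59.3 CPM (log2 fold change 0.85, SE 0.121, adjusted p = 0.000906) and to 121 CPM under severe stress. The phosphate transporter pht7 (GRMZM2G112377) was covered by 20 well-watered and 100 mild reads, a ratio of 5.12 (95% counting interval 3.15 to 8.74), and its call was lost without mild stress replicate 3 or well-watered replicate 2 (adjusted p up to 0.0525). The phytases phytase2 (GRMZM2G043336) and phytase1 (GRMZM2G140101), which free phosphate from phytate and were added after values had been seen, went from 44.5, 52.6 and 27.0 to 91.6, 95.2 and 101 CPM and from 9.55, 15.2 and 6.32 to 26.1, 28.0 and 31.3 CPM (adjusted p = 0.0178 and 0.0161). Both lay higher in every mild library and far higher under severe stress, at 814 and 364 CPM. Their calls were lost without mild stress replicate 3 or 4 or well-watered replicate 1 or 3 (adjusted p up to 0.0694 and 0.0671).

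Of 16 potassium transporters of the HAK family, also added later, 2 rose and 3 fell (median log2 fold change -0.09). HAK1 (GRMZM2G093826) fell from 98.0, 125 and 112 to 71.6, 70.3 and 65.0 CPM (log2 fold change -0.70, SE 0.0925, adjusted p = 0.000558), and HAK11 (GRMZM2G005040) rose from 35.4, 34.0 and 34.1 to 53.8, 49.2 and 47.4 CPM (log2 fold change 0.54, SE 0.0792, adjusted p = 0.00117). HAK9 (GRMZM2G166738) rose from 40.2 ± 0.716 to 51.2 ± 4.45 CPM (adjusted p = 0.00665), with 0.132% unique reads, too few to be tested alone. HAK21 (GRMZM2G438960) was covered by 156 well-watered and 4 mild reads, a ratio of 38.1 (95% counting interval 14.6 to 141). HAK23 (GRMZM2G036916), with an adjusted p of 0.0299, was lost without mild stress replicate 1 or 3 or well-watered replicate 1 or 2 (up to 0.141). None of 5 iron and zinc genes was called by edgeR or DESeq2, none had an unadjusted p below 0.05 (median log2 fold change 0.13), and ferritin FER1 (GRMZM2G325575) was at 209.8 ± 3.41 and 229 ± 9.38 CPM (adjusted p = 0.244).

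None of 29 tested histone genes was called by edgeR or DESeq2 and none had an unadjusted p below 0.05, and their log2 fold changes ranged from -0.13 to 0.10 with standard errors of 0.0608 to 0.100. In every fit that left out 1 library their count of calls was 0, as it was for the 54 tested ribosomal protein genes, of which none had an unadjusted p below 0.05 or was called by DESeq2. The median log2 fold change was -0.04 for histones and -0.01 for ribosomal proteins. Of 11 DNA replication genes 1 was called (9.09%, against 8.92% of all tested genes), RNRS2 (GRMZM2G155546), a ribonucleotide reductase subunit, at 5.65 ± 0.306 and 7.35 ± 0.507 CPM (adjusted p = 0.0393). Of 20 cyclins and cyclin-dependent kinases 1 was called (5.0%), cycD1 (GRMZM2G006721), at 2.14 ± 0.458 and 3.34 ± 0.266 CPM (adjusted p = 0.0315). Both calls were lost without any 1 mild stress library and without well-watered replicate 1 or 2, that of RNRS2 also without well-watered replicate 3 (adjusted p up to 0.147 and 0.107), and cycD1 had too few unique reads to be tested with them. Without severe stress replicate 1 or 2, 2 DNA replication genes were called. The histone H4C14 (GRMZM2G332838) had a 95% interval of -0.30 to 0.05 for its log2 fold change.

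**Figure D5:**
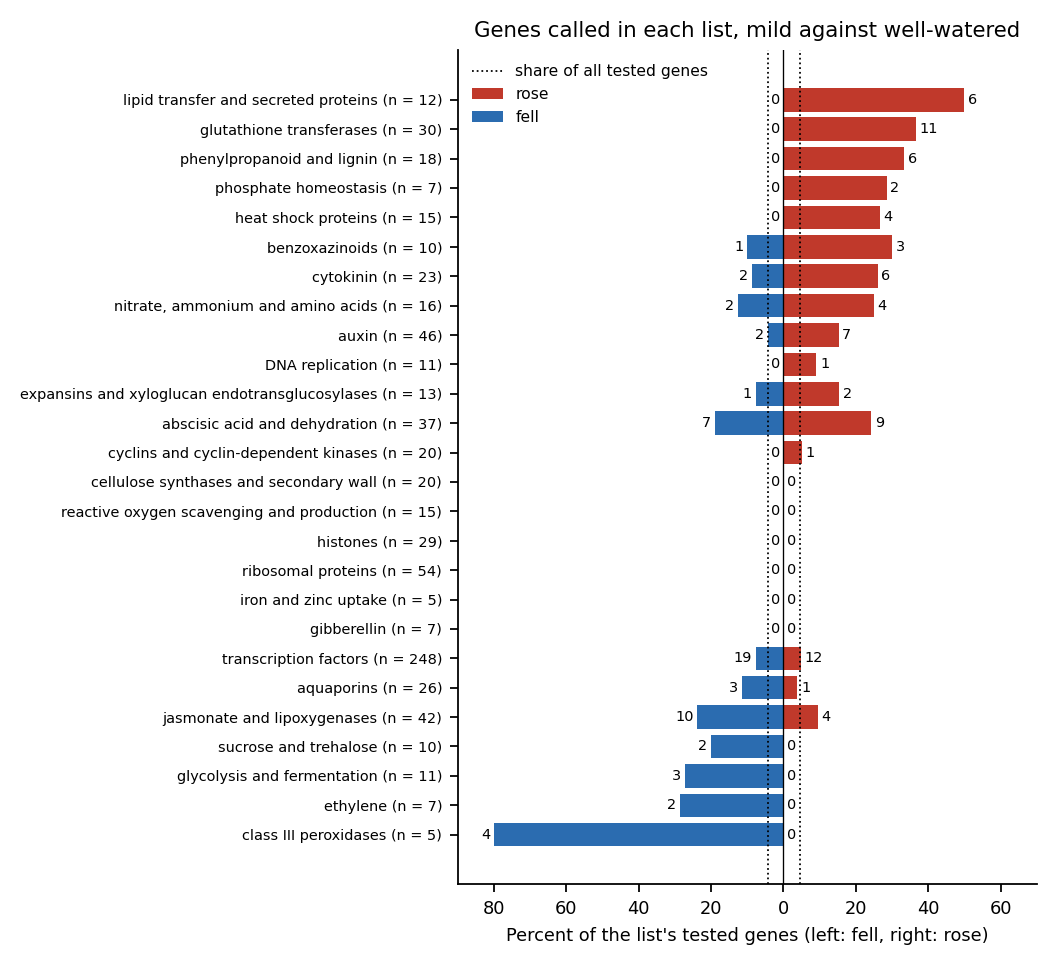
Share of the tested members that rose (right) or fell (left) under mild stress in each list other than those added after values had been seen, the proline list of 1 tested gene and the marker lists, with the count beside each bar, the number tested in parentheses and dotted lines at the shares over all tested genes (4.55% and 4.37%). Lipid transfer and secreted proteins (6 of 12) and glutathione transferases (11 of 30) lie farthest to the right and class III peroxidases (4 of 5) farthest to the left. The lists hold named genes only and miss unnamed family members, and of 2201 tested genes with a name 267 were changed.

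Transcription factors were called in 31 of 248 cases, 12 upward and 19 downward (median log2 fold change -0.03). This share was 12.5%, against 8.92% of all tested genes and 267 of 2201 named ones. NAC genes rose in 4 of 21 cases and fell in 0, and bHLH genes rose in 1 of 36 and fell in 5. Over all tested genes 4.55% rose and 4.37% fell. The NAC1 gene GRMZM2G336533 rose from 3.64, 1.18 and 0.803 to 6.99, 8.25 and 8.31 CPM (log2 fold change 2.13, SE 0.381, adjusted p = 0.00419) and to 51.5 CPM under severe stress. MYB165 (GRMZM2G089686) rose from 6.67, 5.17 and 5.79 to 16.8, 18.6 and 16.6 CPM (log2 fold change 1.56, SE 0.105, adjusted p = 5.31e-06) and to 52.7 CPM. Well-watered replicate 1 was the highest well-watered library in both genes. bHLH94 (GRMZM5G849600) fell from 4.65 ± 0.848 to 1.55 ± 0.219 CPM and bZIP17 (GRMZM2G103647) from 15.8 ± 1.94 to 6.42 ± 0.642 CPM (adjusted p = 0.000539 and 0.00277). Myb49 (GRMZM2G081557), also named myb2, had 0 reads in all 3 well-watered libraries and 5, 3 and 5 in mild stress replicates 1, 3 and 4. Its 13 mild reads together were 1.45-fold the floor of 3 reads per library, without allowance for counting error, and replicate 3 was at the floor. The newer quasi-likelihood method of edgeR did not call it (adjusted p = 0.0894). The fall of EREB179 (GRMZM2G129674, adjusted p = 0.00855) was lost without mild stress replicate 4 (0.0526), the rise of bHLH20 (GRMZM2G414252, adjusted p = 0.0139) without mild stress replicate 3 or well-watered replicate 2 or 3 (up to 0.0581), and the fall of myb39 (GRMZM2G127857, adjusted p = 0.0471), at 59 and 18 reads, without mild stress replicate 3 or 4, severe stress replicate 1 or any 1 well-watered library (up to 0.185) and in DESeq2 (adjusted p = 0.0686). With unique reads the calls of NAC1 and bZIP17 were lost (adjusted p = 0.0714 and 0.0965). The fits without mild stress replicate 3 or 4 or well-watered replicate 2 each called 19 transcription factors.

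When the same test was run on the 46599 single transcripts that the authors list in CPM, 1134 changed (2.43%), with 641 higher (1.38%) and 493 lower (1.06%). They belonged to 1063 genes, of which 1004 had a changed sum. A gene sum includes the reads of its transcripts, so the directions of the gene and the transcript are not independent. The direction was that of the gene sum for 1072 transcripts and the opposite for 0, and for 62 the gene sum was not changed or not tested. Among these 62, GRMZM2G354604_T04 rose from 48.1, 38.6 and 55.7 to 80.0, 88.3 and 105 CPM (log2 fold change 0.94, SE 0.142, adjusted p = 0.00898), whereas its gene sum was at 755 ± 16.0 and 695 ± 26.6 CPM. GRMZM2G430600_T01 fell from 46.2, 49.0 and 43.9 to 19.0, 17.6 and 16.2 CPM (log2 fold change -1.40, SE 0.145, adjusted p = 0.00135), with a gene sum of 264 ± 12.3 and 220.1 ± 14.1 CPM (adjusted p = 0.138). Both transcripts were clearly separated between the treatments.

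The other 8 transcripts with the largest changes of this kind were less abundant. GRMZM2G123896_T01, GRMZM2G014508_T03, GRMZM2G131943_T04 and GRMZM2G047347_T03 rose, with log2 fold changes of 0.85 to 1.80, and GRMZM2G041328_T02, GRMZM2G095323_T02, GRMZM2G072690_T03 and GRMZM5G835629_T01 fell, with log2 fold changes of -1.12 to -1.56. Unique reads were 0.0396% to 7.51% of the reads of all 10 transcripts. How the reads that transcripts of 1 gene share were divided between them is not stated in the sources used here, and its part in these differences was not tested. The count of changed transcripts was 554 to 718 without any 1 of the 6 libraries compared, and 938 to 1427 without 1 severe stress library.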

How the data were processed

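The abundance of B73 RefGen_v3 gene models was measured by poly-A RNA-seq in 9 libraries, 3 per treatment. According to the study's methods, the authors mapped reads with CLC Genomics Workbench, and deposited per transcript the total counts, the unique counts, the TPM and the CPM of each library. How reads with several positions were assigned is not given in the sources used here. The deposited counts (total reads) were summed by gene ID, and the authors' CPM was used only for its list of transcripts, since a transcript entered the transcript test only if it was listed there. The deposited TPM was not used for any test. CPM values in the text were recomputed from the counts.

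Genes passed filterByExpr of edgeR 4.0.16 (R 4.3.3, minimum count 10), were scaled by TMM and fitted with all 9 libraries and treatment as the only term. Mild minus well-watered was tested with the quasi-likelihood F-test, and p-values were adjusted by the Benjamini-Hochberg method over all 26048 genes or 46599 transcripts. Standard errors are the log2 fold change over the root of F. The fold changes of genes with few reads depend on the prior count of 0.125, so a ratio of pooled reads with an exact 95% interval, which covers counting error only, is given where a library had 3 or fewer reads. The scripts were tested on simulated data. Alternatives were DESeq2 1.42.0, other scaling, filters and reads, the 6 libraries alone, a replicate block and leaving out each library.

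Named genes were called genes without overlap between the treatments and with at least 5 CPM in 1 of them: the 15 largest rises and 15 largest falls, the 5 smallest FDRs in each direction and the 10 most abundant. From each list up to 4 called members in each direction were named by size of change, or the member with the smallest FDR where none was called. Markers and, by the same size rule, 10 transcripts whose gene sum was not called were added. Exceptions are stated beside the gene. Lists were matched on symbols in the deposited tables and the RefSeq gene table of Zm-B73-REFERENCE-NAM-5.0, in which 18323 of 39323 IDs had 1 match. Family members without a matching symbol are missing from the lists. The genes and lists were chosen with earlier results of these data known. Promoter motifs were not analysed here.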

Additional observations from a re-analysis of the deposited data

How the results depend on the processing

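Against 2324 changed genes (1185 risen, 1139 fallen), the fit of the 6 libraries alone called 3817 (1907 and 1910), an FDR below 0.01 left 1144 (632 and 512), and leaving out 1 library gave 1376 to 3646 in all, 730 to 1754 risen and 590 to 1892 fallen. DESeq2 (2619), library sizes without TMM (2267), no filter on low counts (2328), at least 1 CPM in 3 libraries (2280), the newer quasi-likelihood method of edgeR (2065) and unique reads (1734) stayed within 1.5 times. Of the main calls, 50.99% were rises, and 56.9% without TMM. Against 1134 changed transcripts (641 risen, 493 fallen), DESeq2 called 2339 (1297 and 1042), unique reads 1876 (1012 and 864), an FDR below 0.01 left 435 (267 and 168), and leaving out 1 library gave 554 to 1427, with 341 to 767 risen and 203 to 660 fallen. Severe against mild stress gave 11220 to 13581 genes without 1 library, against 13032. List members called, 137 of 738, became 207 with the 6 libraries alone and 91 to 204 without 1 library. The causes were not tested.

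Same-numbered well-watered and mild libraries (replicates 1 and 3) did not deviate together from their treatment means (r = -0.0045 and 0.0098). So few pairs cannot show whether equal numbers shared a growth box or day, which the labels do not state. With the replicate number as a block, 1399 genes were called, 65.2% of them rises and 487 of them falls, against 145 transcripts (111 risen, 34 fallen) and 6769 genes for severe against mild stress, and 53 of 151 named calls were lost. Of the named calls, the newer quasi-likelihood method lost 19, DESeq2 4, library sizes without TMM 5, no filter 2, the 6 libraries alone 1 and unique reads 19. Lost with the newer quasi-likelihood method were VP14, EMB5, lac4, lac5, ARF28, RNRS2, lox6, TIFY4, NAR, pdc2, BX4, HSP18, Myb49, bHLH20 and sat1. Also lost with it were HMT-2 (GRMZM2G117240), GRMZM2G043027, GRMZM2G080466 and GRMZM2G091155. DESeq2 gave 1 named call no adjusted p, and 12 had too few unique reads for a test with them. With unique reads GRMZM2G091155 also changed direction, at a log2 fold change of 0.83 (adjusted p = 0.0997 in edgeR), against -0.30 in all reads.

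Depth limits the genes of few reads. Where a treatment had 3 or fewer reads in a library the fitted fold change depends on the prior count, and the counting interval of the ratio was wide, as for gst18 (3.48 to 120.0).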
